A study of Mus musculus with 12 samples.

Results

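A set of 10 genes for secreted immune signals was followed in primary neuronal cultures given one of 5 antidepressants: 9 chemokines (Cxcl1, Cxcl2, Cxcl10, Cxcl12, Cxcl14, Ccl2, Ccl3, Ccl4 and Cx3cl1) and the lipocalin Lcn2. They were taken by symbol, as the probe sets of the array whose annotation holds exactly that 1 gene, which gave 10 probe sets, 1 for each gene, of 23521 with a single symbol. All 10 lay above the filter on dim probe sets, among 17467 genes tested of 22180 named. The 10 were chosen by name with their drug-control differences on these arrays already known, the higher Cxcl2 of the drug-treated cultures among them. Differences between a drug and control are therefore given for the 10 as a description with their error, and not as a test.

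The cultures came from embryonic brain of ICR (CD-1) mice, an outbred stock, and grew in Neurobasal medium with B27. Drug was added at day in vitro 3, and RNA was taken 48 h later, at day in vitro 5. Apart from control, the groups received 2 tricyclic drugs, amitriptyline and imipramine, at 5 µM each, or citalopram at 10 µM, duloxetine at 0.1 µM or mirtazapine at 50 µM. Each drug had a single dose, the lowest being that of duloxetine. Drug and dose therefore cannot be told apart, except between the 2 tricyclics. Citalopram blocks reuptake of serotonin, duloxetine that of serotonin and noradrenaline, and mirtazapine is a tetracyclic receptor antagonist. Each group, control included, had 2 arrays, 12 in all. The sources used here do not give what was added to control cultures, nor whether replicates were separate cultures or animals. Errors and p-values therefore cover only the spread between the arrays, which may be technical.

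Chemokines are small secreted proteins that draw cells along a gradient through G protein-coupled receptors, and they are classed by the spacing of their first cysteines (CXC, CC and CX3C). Inflammatory chemokines are kept low at rest and are switched on by transcription factors such as NF-kappaB. Homeostatic ones such as Cxcl12 are made constantly and guide migrating cells in the developing brain. Lcn2, a lipocalin that binds iron-carrying siderophores, is made by reactive astrocytes and by many other cells in inflammation and stress.

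The sequences upstream of the 4 members with the widest range over the arrays are given here as a description. The promoter table, from RefSeq on GRCm38.p6, held 8 of the 10 members, Ccl2 and Ccl4 being the ones without an entry. Each window runs from 250 bases before the gene's start to 50 bases after it, on the gene's strand. Capitals mark each GGG and CC spaced by any 5 bases, on either strand, a loose form of the NF-kappaB site; overlapping matches run together. In Cxcl10 they also mark a GAAA repeated after any 2 bases, the core of the interferon-stimulated response element. The windows lie at chr5:90890995-90891294 (plus strand) for Cxcl1, chr5:90903649-90903948 (plus) for Cxcl2, chr2:32387690-32387989 (minus) for Lcn2 and chr5:92348840-92349139 (minus) for Cxcl10.
Cxcl1: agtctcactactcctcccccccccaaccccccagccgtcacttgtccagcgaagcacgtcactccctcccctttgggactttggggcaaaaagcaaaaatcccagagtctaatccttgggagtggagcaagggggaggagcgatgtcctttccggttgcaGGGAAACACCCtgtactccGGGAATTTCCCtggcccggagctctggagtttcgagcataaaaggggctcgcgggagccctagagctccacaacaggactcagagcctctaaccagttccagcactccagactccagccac
Cxcl2: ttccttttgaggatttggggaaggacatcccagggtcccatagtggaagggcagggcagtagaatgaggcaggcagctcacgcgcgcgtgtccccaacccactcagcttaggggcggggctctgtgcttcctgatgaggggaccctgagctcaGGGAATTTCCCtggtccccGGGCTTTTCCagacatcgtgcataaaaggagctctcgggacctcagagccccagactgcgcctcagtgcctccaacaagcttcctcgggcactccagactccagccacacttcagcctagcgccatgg
Lcn2: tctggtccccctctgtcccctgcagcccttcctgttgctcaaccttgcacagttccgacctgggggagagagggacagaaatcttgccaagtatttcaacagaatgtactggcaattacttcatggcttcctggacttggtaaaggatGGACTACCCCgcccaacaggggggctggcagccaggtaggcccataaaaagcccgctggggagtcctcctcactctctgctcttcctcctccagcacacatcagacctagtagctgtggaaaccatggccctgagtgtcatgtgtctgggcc
Cxcl10: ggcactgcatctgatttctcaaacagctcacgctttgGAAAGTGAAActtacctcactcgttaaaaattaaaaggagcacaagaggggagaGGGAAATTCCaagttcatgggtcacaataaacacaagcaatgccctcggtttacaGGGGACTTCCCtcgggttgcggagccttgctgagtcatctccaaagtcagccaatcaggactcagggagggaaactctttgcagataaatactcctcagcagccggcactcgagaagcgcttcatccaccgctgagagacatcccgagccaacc

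The loose form occurred in the windows of 5 members, Cxcl1, Cxcl2, Cxcl10, Cxcl12 and Lcn2. It is common: 50.8% of all 32851 windows held it. An exact form, GGGAATTTCC, stood on the gene's strand in both Cxcl1 (bases −71 to −62 from the start) and Cxcl2 (−97 to −88). On either strand it stood in 29 of all windows, or 0.0883%. Shifted by 1 base it reads, on the other strand of both genes, as GGGAAATTCC. That form stood on the gene's own strand in Cxcl10 (−159 to −150), and on either strand in 36 windows, or 0.11%. Both forms were picked after the matches were seen. Cxcl1 and Cxcl2 are neighbours in the gene table, as are Ccl3 and Ccl4. The interferon element (3.44% of windows) matched Cxcl10 at bases −213 to −204 and Cxcl14 at −172 to −163. Of 4 further motifs searched on both strands, TGANTCA (AP-1; 7.81% of windows) and TGACNNNGC (the antioxidant response element; 12.4%) matched Cxcl10 alone of the members, at overlapping bases. TATAAA (13.6%) matched Cx3cl1 alone of them, and TGATGNAA (the ATF4 element; 3.97%) matched no member. A match is a description of letters and not of a site in use.

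Values are RMA values on a log2 scale, so a difference of 1 is a doubling, and a level is compared only with the same probe set on other arrays. All 10 markers of the neuron list (Tubb3, Map2 and Dcx among them) passed the filter, which 17467 of 22180 named genes did. So did all 10 astrocyte markers, 16 of 17 microglia and macrophage markers (Ptprc did not) and 3 of 8 neutrophil markers. Duloxetine replicate 2 and mirtazapine replicate 2 stood apart from the rest. Their upper quartiles over all probe sets were 8.21 and 8.2, against 8.31 to 8.37 on the other 10 arrays. Their lower quartiles were 5.5 and 5.57 against 5.37 to 5.5.

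Cxcl1 and Cxcl2, ligands of the receptor CXCR2 that recruit neutrophils, were higher in the cultures given 4 of the drugs. For Cxcl2 the control arrays read 7.62 and 7.71 and the duloxetine arrays 7.48 and 7.83. Citalopram gave 8.82 and 8.9, amitriptyline 8.95 and 8.57, mirtazapine 8.93 and 8.64, and imipramine 9.35 and 8.91. Every one of these 8 arrays lay above all 4 control and duloxetine arrays, with a gap of 0.74 between the nearest values. The differences from control (± SE of the fit) were 1.20 ± 0.18 for citalopram, 1.10 ± 0.18 for amitriptyline, 1.12 ± 0.18 for mirtazapine and 1.47 ± 0.18 for imipramine, or 2.14-fold to 2.76-fold. Duloxetine differed by −0.01 ± 0.18. Imipramine had the highest mean and overlapped with amitriptyline and mirtazapine; citalopram lay within both of these, and duloxetine spanned control. In bulk RNA of this kind, more cells that make a transcript and more transcript in each cell cannot be told apart.

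Cxcl1 followed the same split at a smaller size. Its control arrays read 6.66 and 7.15, and duloxetine 6.88 and 7.14. The values were 7.75 and 7.86 under citalopram, 7.95 and 7.88 under amitriptyline, 8.15 and 8.05 under imipramine, and 7.82 and 7.5 under mirtazapine. Again the 8 arrays were all above the other 4, here by a gap of 0.35. Imipramine lay 1.20 ± 0.17 above control (2.29-fold), amitriptyline 1.01 ± 0.17 (2.01-fold), citalopram 0.90 ± 0.17 and mirtazapine 0.76 ± 0.17 (1.69-fold), and duloxetine 0.11 ± 0.17. The control arrays were 0.49 apart, and without control replicate 1 the imipramine difference was 0.95. The order of groups was imipramine, amitriptyline, citalopram and mirtazapine; citalopram and mirtazapine overlapped, as did duloxetine and control.

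Lcn2 separated the arrays in the same way. It read 6.92 and 6.81 in control, 6.59 and 7.04 under duloxetine, 7.47 and 7.68 under citalopram, 7.62 and 7.55 under amitriptyline, 7.59 and 7.51 under mirtazapine, and 7.92 and 7.59 under imipramine. The lowest of the 8 higher arrays was 0.43 above the highest of the other 4. The differences from control were close to each other: 0.89 ± 0.16 for imipramine (1.85-fold), 0.72 ± 0.16 for amitriptyline, 0.71 ± 0.16 for citalopram and 0.69 ± 0.16 for mirtazapine (1.61-fold). Duloxetine stood at −0.05 ± 0.16. The 4 higher groups overlapped one after the other, so their order does not exceed their spread. Of all genes tested, 1.12% had these 8 arrays above the other 4, and 1.51% had them below. The 3 members with this pattern, Cxcl1, Cxcl2 and Lcn2, were chosen with such values known, and nothing is read from their share of the 10.

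**Figure D1:**
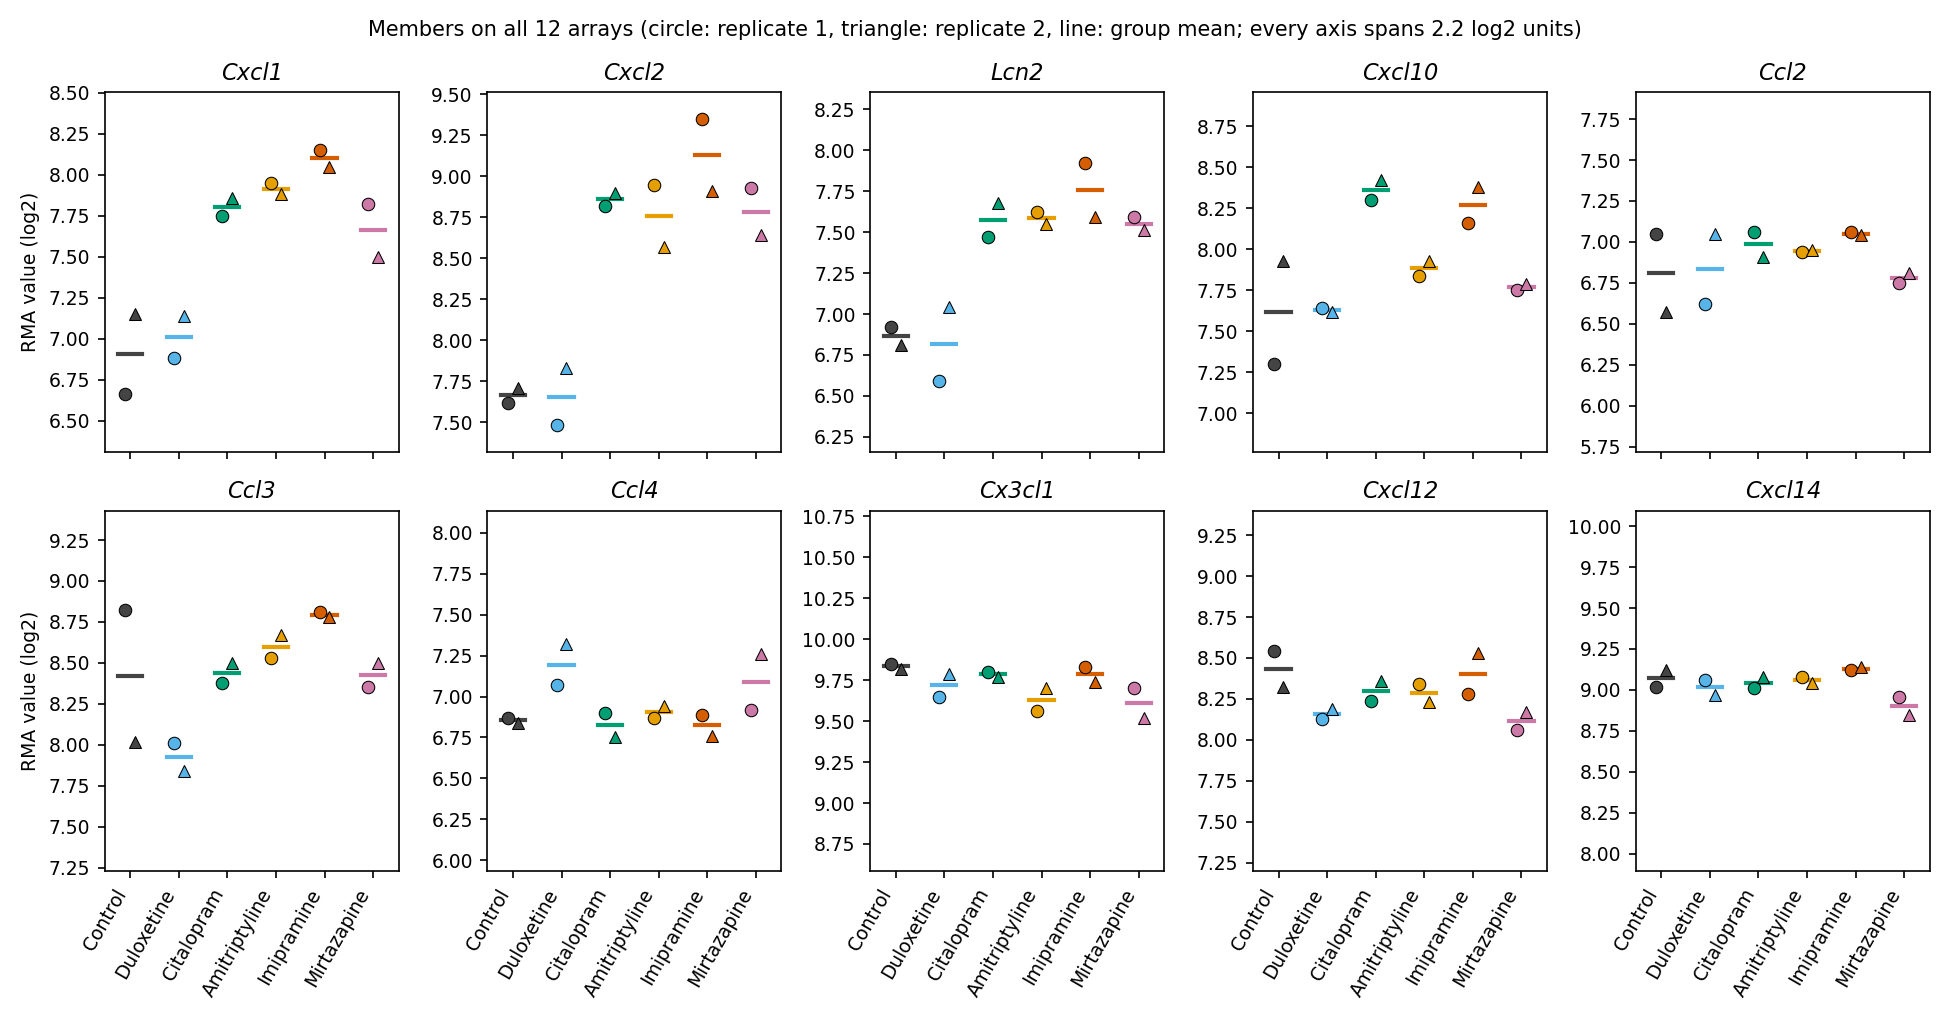
RMA values (log2, vertical axes) of the 10 genes in the 6 groups (horizontal axes); circles are replicate 1, triangles replicate 2 and lines the group means, and every axis spans 2.2 log2 units. Cxcl1, Cxcl2 and Lcn2 are higher on the 8 arrays of citalopram, amitriptyline, imipramine and mirtazapine than on the 4 arrays of control and duloxetine, while the lower row stays within 0.98 log2 units.

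Cxcl10, an interferon-inducible ligand of CXCR3 that attracts T cells, divided the drugs differently. Citalopram (8.3 and 8.42) and imipramine (8.16 and 8.38) gave the highest arrays. Amitriptyline (7.84 and 7.93), mirtazapine (7.75 and 7.79) and duloxetine (7.64 and 7.62) lay no higher than the upper control array; the control arrays read 7.3 and 7.93. Only the citalopram and imipramine groups were wholly above both control arrays among the 5 drugs. They differed from control by 0.75 ± 0.17 (1.68-fold) and 0.66 ± 0.17 (1.57-fold), and the other 3 drugs by 0.02 to 0.27. The 0.63 between the control arrays was wider than the gap in any drug group for this gene. Without control replicate 1 the citalopram and imipramine differences were 0.43 and 0.34.

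Of the CC chemokines, Ccl2, which recruits monocytes through CCR2, stayed within 0.49 log2 units over all arrays. Control read 7.05 and 6.57 and duloxetine 6.62 and 7.05, so both of these groups spanned nearly the whole range. The other drugs lay between 6.75 and 7.06, and their differences from control ran from −0.03 ± 0.17 (mirtazapine) to 0.24 ± 0.17 (imipramine). None of the 5 drug groups was clear of both control arrays.

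Ccl3, an inflammatory chemokine made by microglia and macrophages among other cells, had the widest control pair, at 8.82 and 8.02. Imipramine (8.81 and 8.78), amitriptyline (8.53 and 8.67), citalopram (8.38 and 8.5) and mirtazapine (8.35 and 8.5) all fell between those control values. Duloxetine alone was outside them, at 8.01 and 7.84, a difference of −0.50 ± 0.21 from the control mean. Its upper array was only 0.01 below control replicate 2, and without control replicate 1 the difference was −0.10.

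Ccl4, a related inflammatory chemokine next to Ccl3 in the genome, was highest where Ccl3 was lowest. Its duloxetine arrays read 7.07 and 7.32 and its mirtazapine arrays 6.92 and 7.26. Control read 6.87 and 6.84, amitriptyline 6.87 and 6.94, citalopram 6.9 and 6.75, and imipramine 6.89 and 6.76. Both of the highest readings, 7.32 and 7.26, came from the arrays that stand apart. The differences from control were 0.34 ± 0.13 for duloxetine and 0.24 ± 0.13 for mirtazapine; without replicate 2 of each drug they were 0.22 and 0.07.

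The remaining 3 members varied little over the arrays. Cx3cl1, the membrane-bound neuronal ligand of the microglial receptor CX3CR1, read 9.85 and 9.82 in control and 9.7 and 9.52 under mirtazapine, its lowest group (−0.23 ± 0.10). The 9.52 came from mirtazapine replicate 2, an array that stands apart; the difference was −0.14 without it and −0.11 with a second quantile normalization. Amitriptyline (9.56 and 9.7) came next at −0.21 ± 0.10, or −0.14 without its replicate 1. Citalopram (9.8 and 9.77) and duloxetine (9.65 and 9.79) were also below both control arrays, by 0.05 and 0.12 on average (duloxetine by 0.04 with a second quantile normalization), while imipramine (9.83 and 9.74) overlapped with them. The whole range of Cx3cl1 was 0.33 log2 units.

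Cxcl12, which guides migrating neurons and progenitors through CXCR4, read 8.54 and 8.32 in control. Mirtazapine (8.06 and 8.17) and duloxetine (8.13 and 8.19) lay below both control arrays, with differences of −0.32 ± 0.12 and −0.27 ± 0.12. Without control replicate 1 they were −0.21 and −0.16, and with a second quantile normalization −0.21 and −0.17. Citalopram (8.24 and 8.36), amitriptyline (8.34 and 8.23) and imipramine (8.28 and 8.53) overlapped with control. Cxcl14, a conserved chemokine expressed by interneurons among other cells, had the narrowest range of the 10, 0.29 log2 units. It stood at 9.02 and 9.12 in control and 8.96 and 8.85 under mirtazapine (−0.17 ± 0.09), and the other groups lay within 8.97 and 9.14. That difference was −0.11 without mirtazapine replicate 2 and −0.04 with a second quantile normalization.

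**Figure D2:**
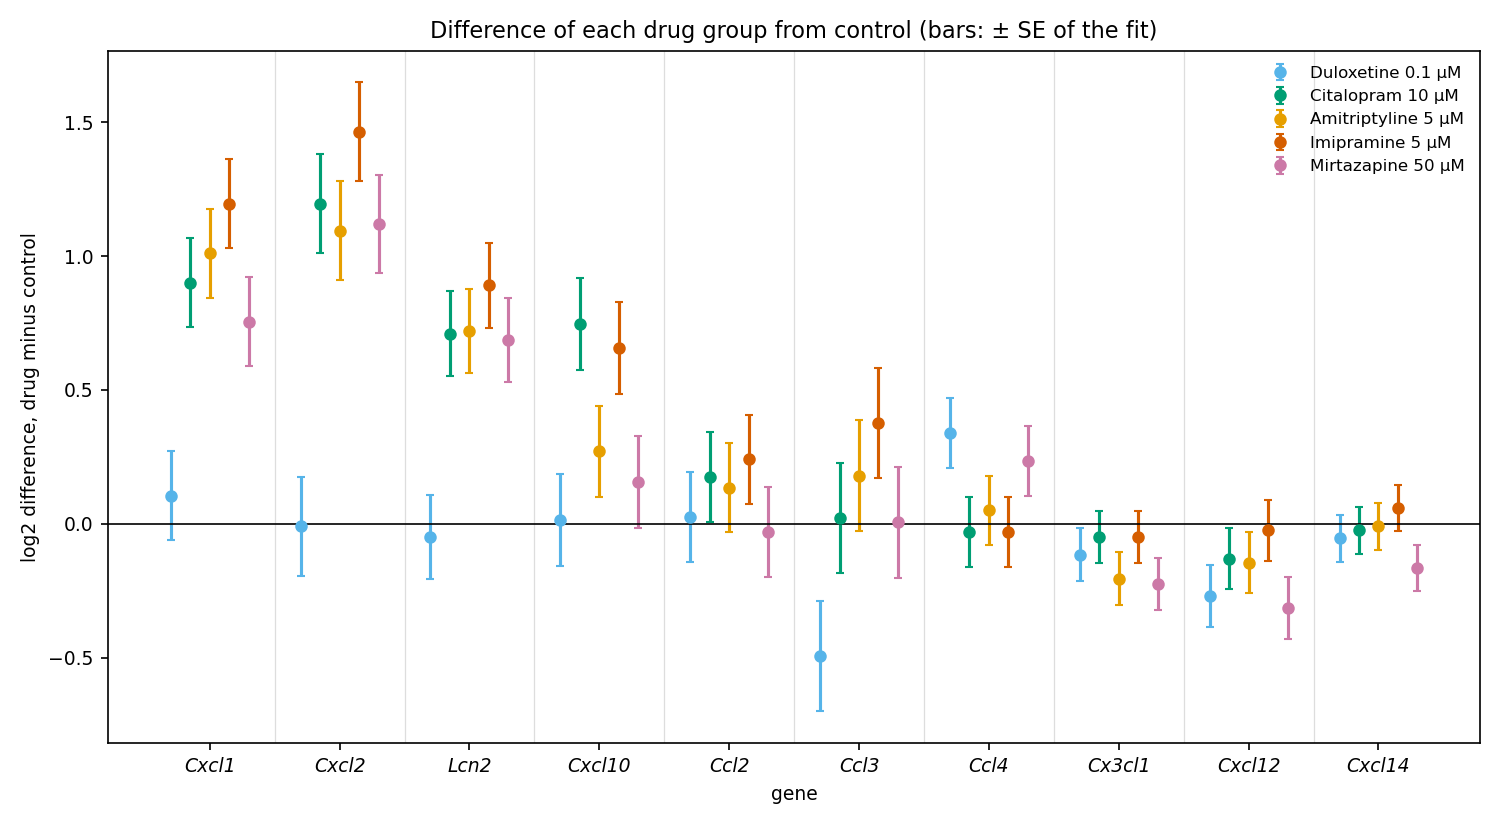
Log2 difference of each drug group from control (vertical axis) for the 10 genes (horizontal axis); points are fitted differences and bars ± SE. Cxcl2 runs from −0.01 under duloxetine to 1.47 under imipramine, whereas Cxcl14 stays between −0.17 and 0.06.

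Counted by drug, 3 members lay with both arrays above both control arrays under amitriptyline (14.1% of all genes tested did), 4 under citalopram (17%), 1 under duloxetine (15.5%), 4 under imipramine (14.3%) and 4 under mirtazapine (22.6%). Both arrays were below both control arrays for 1 member under amitriptyline (24.2% of all genes), 1 under citalopram (22.1%), 3 under duloxetine (18.3%), 0 under imipramine (19.1%) and 3 under mirtazapine (30.6%). The median difference of the 10 was 0.16, 0.10, −0.03, 0.31 and 0.08 for these drugs in turn, and that of all genes −0.02, −0.005, −0.015, −0.005 and −0.035. All 5 comparisons use the same 2 control arrays, so their counts are not independent of each other.

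In limma with Benjamini-Hochberg adjustment over all genes, 1 member was under the threshold of 0.05 for imipramine, where 0.0286% of genes were called, and 1 for mirtazapine, where 1.74% were. Both times it was Cxcl2 (adjusted p = 0.0471 and 0.0223), and as that gene was proposed with these results known, this is no independent support. No member was called under amitriptyline, citalopram or duloxetine, for which 0% of genes were; at an unadjusted p under 0.05 limma had 3, 4 and 3 members, against 6.14%, 4.44% and 10% of all genes. For imipramine and mirtazapine it had 4 and 5 members at that level, against 4.56% and 22.4%. The Cxcl2 call under imipramine held without either duloxetine array (adjusted p = 0.0305 in limma) and ended without any 1 of the other 10 arrays. Its adjusted p in limma was then 0.0738 without either amitriptyline array, 0.112 without either citalopram array, 0.0549 without either mirtazapine array, 0.386 and 0.0798 without control replicates 1 and 2, and 0.638 and 0.105 without imipramine replicates 1 and 2. The call under mirtazapine ended without control replicate 1 (adjusted p = 0.179 in limma), control replicate 2 (0.0807), mirtazapine replicate 2 (0.1) or either citalopram array (0.0526). The differences themselves stayed between 1.25 and 1.69 for imipramine and between 0.98 and 1.27 for mirtazapine. Without either duloxetine array limma called Cxcl1 and Cxcl2 under amitriptyline (0.275% of all genes called), and those and Lcn2 under imipramine (0.166%) and mirtazapine (7.6%). Without control replicate 2 it called Cxcl1 under amitriptyline (0.0973% of all genes) and mirtazapine (0.664%), Cxcl10 under citalopram (0.0573%), and both under imipramine (0.12%). With both arrays that stand apart left out, limma called Cxcl1, Cxcl2 and Lcn2 under amitriptyline (1.31% of all genes), imipramine (0.481%) and mirtazapine (2.12%) and 0 members under citalopram and duloxetine.

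Amitriptyline and imipramine are the only 2 drugs given at the same dose, and both are tricyclics with a dimethylamino group at the end of a side chain; where the chain joins the central ring, imipramine has a nitrogen and amitriptyline a carbon. This was the 1 pair compared. Its differences follow from the drug-control values known when the members were chosen, so they and their intervals are a description and not a separate test. For 9 of the 10 genes amitriptyline was the lower, with a median difference of −0.16 against −0.02 over all genes. None of the 10 was called in limma, and 0% of all genes were (every adjusted p = 1; 1 member and 1.21% of all genes at an unadjusted p under 0.05). Both amitriptyline arrays were below both imipramine arrays for 6 members, as for 20.3% of all genes. Cxcl10 had the widest difference, −0.39 with a 95% interval from −0.77 to −0.002, followed by Cxcl2 at −0.37 (−0.78 to 0.04). The interval for Cxcl1 ran from −0.56 to 0.19 and that for Lcn2 from −0.52 to 0.18. The intervals of Cxcl1, Cxcl2 and Lcn2 hold equal levels as well as clearly lower ones under amitriptyline.

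**Figure D3:**
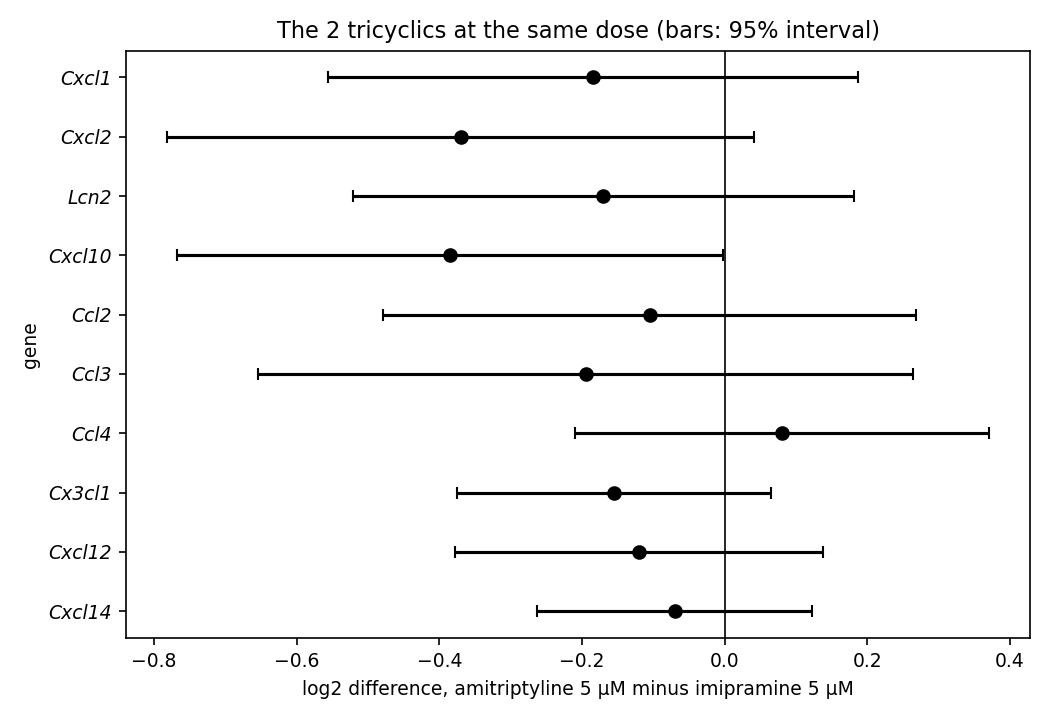
Log2 difference of amitriptyline minus imipramine, both at 5 µM (horizontal axis), for the 10 genes (vertical axis); points are fitted differences and bars 95% intervals. The points lie left of 0 for 9 genes, and the interval of Cxcl10 ends at −0.002.

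For the 4 members whose values ranged over more than 1 log2 unit, the genes of most similar profile were sought among all genes tested, by the root mean square difference over the 12 arrays after centring each gene on its mean. The nearest to Cxcl1 were Nupr1 (0.101 log2 units), a stress-induced chromatin protein, the sulfiredoxin gene Srxn1 (0.123) and the endoplasmic reticulum oxidase gene Ero1a (0.141), where Cxcl1 itself varied by 0.471 around its mean. Nearest to Cxcl2 (0.609 around its mean) were Hmox1 (0.176), the inducible heme oxygenase, the stress-induced transcription factor Atf3 (0.205) and Ostn (0.21), encoding osteocrin. For Lcn2 (0.393) they were the fibronectin receptor subunit Itga5 (0.133), the eIF2alpha phosphatase subunit Ppp1r15a (0.137) and Atf3 (0.148). Cxcl10 (0.325) had the mitochondrial folate enzyme Mthfd2 (0.157), the oncostatin M receptor Osmr (0.169) and Extl1 (0.185), a glycosyltransferase. None of these 12 nearest places went to another member; Cxcl1 and Lcn2 were 0.183 apart. All of these values share the same 12 arrays, and likeness was ranked over 17467 genes, so closeness describes these arrays only.

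**Figure D4:**
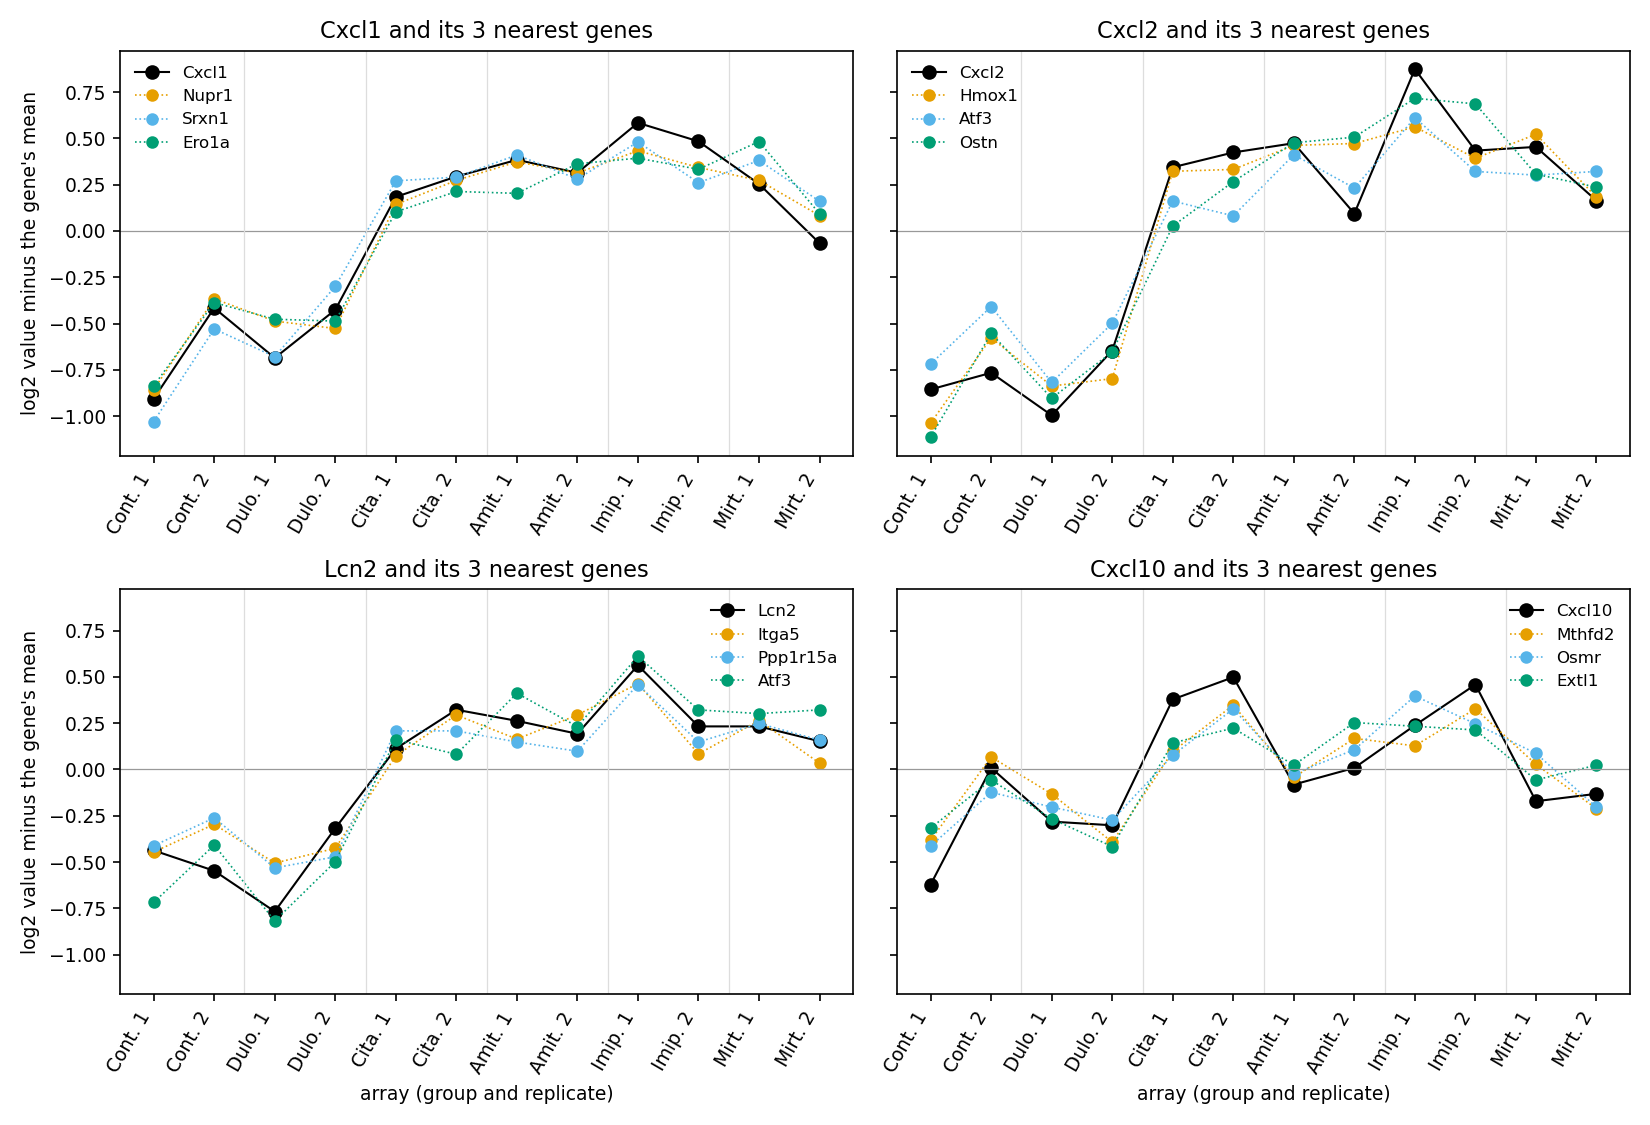
Log2 value minus the gene's own mean (vertical axes) on each of the 12 arrays (horizontal axes, group and replicate) for Cxcl1, Cxcl2, Lcn2 and Cxcl10 in black and their 3 nearest genes in colour; lines only join the points of a gene. Hmox1 is at −1.04 and −0.58 on the control arrays, where Cxcl2 is at −0.86 and −0.77.

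The partners of these genes were read from 6 lists holding 118 other genes, of which 111 were on the array and 90 passed the filter. Limma called 1 of the 90 under imipramine, 2 under mirtazapine and 0 under amitriptyline, citalopram and duloxetine. At an unadjusted p under 0.05 it had 8 of the 90 under amitriptyline (6.14% of all genes), 9 under citalopram (4.44%), 9 under duloxetine (10%), 9 under imipramine (4.56%) and 24 under mirtazapine (22.4%). The gene called under imipramine was Ptgs2, the inducible prostaglandin synthase, which was higher (2.37 ± 0.25, adjusted p = 0.0221 in limma). It was also called, and higher, under mirtazapine (1.79 ± 0.25, adjusted p = 0.0173 in limma). Under amitriptyline and citalopram it was higher by 2.07 ± 0.25 and 2.14 ± 0.25, without a call. Its arrays followed the split of Cxcl1, Cxcl2 and Lcn2: control read 7.45 and 8.11 and duloxetine 7.5 and 7.16, against 9.26 to 10.36 under the other 4 drugs. Ptgs2 is part of earlier results on these arrays and no independent support. Without control replicate 1 limma called 0 of the 90 genes under imipramine and 0 under mirtazapine, and without mirtazapine replicate 2 also 0 under mirtazapine. The Ptgs2 call under imipramine also ended without any 1 of the amitriptyline, citalopram or imipramine arrays (0 of the 90 called each time). Other arrays raised the counts: limma called 9 of the 90 under mirtazapine without either duloxetine array or without mirtazapine replicate 1, and 8 under duloxetine without duloxetine replicate 1. Those fits called 7.6%, 8.3% and 11.7% of all genes, so the counts were near the background. It called Ptgs2 under amitriptyline without either duloxetine array or control replicate 2, and under citalopram without control replicate 2. With both arrays that stand apart left out, limma called Ptgs2 higher and Vcam1 and Il18 lower under amitriptyline. Under mirtazapine, then with 1 array, Ptgs2 was higher and Vcam1, Il18 and Ifit2 were lower. The shares of all genes called in that fit are given with the member calls above.

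Of 22 NF-kappaB pathway genes, differences were positive for 12 under amitriptyline, 17 under citalopram, 12 under duloxetine, 11 under imipramine and 12 under mirtazapine. Limma called 0 of all genes higher under amitriptyline, citalopram and duloxetine, 0.0286% under imipramine and 0.269% under mirtazapine. Of the 22 it called 0 higher under any drug and 1 lower, under mirtazapine: Vcam1, which encodes an adhesion molecule for leukocytes. It read 8.72 on both control arrays, 7.96 and 7.88 under mirtazapine (−0.80 ± 0.12, adjusted p = 0.0195 in limma) and 7.84 to 8.42 under amitriptyline, citalopram and imipramine, with 8.76 and 8.68 under duloxetine. The Vcam1 call ended, with 0 or 1 of the 90 genes then called, without either citalopram array, control replicate 1 or mirtazapine replicate 2. Without control replicate 2 limma called 2 of the 90 under mirtazapine, and Ccl17 stood in the place of Vcam1. The list's median difference was 0.03 under amitriptyline, 0.04 under citalopram, 0.03 under duloxetine, 0 under imipramine and 0.01 under mirtazapine, at most 0.05 from the median of all genes. Of 12 interferon response genes none was called, with medians between −0.03 and 0.06. Their lowest p belonged to Ifit2, an interferon-induced antiviral gene (−0.47 ± 0.10 under mirtazapine, adjusted p = 0.055 in limma), which read 6.72 and 6.66 in control and 6.13 and 6.31 under mirtazapine. Both Ifit2 arrays were below both control arrays under each of the 5 drugs, as for 18.3% to 30.6% of all genes per drug. The same 2 control arrays serve all 5 comparisons, and the share of genes below in all 5 was not counted.

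Chemokine receptors and the other ligands gave no call in limma under any of the 5 drugs. Of 15 receptors tested, 14 had positive differences under mirtazapine (median 0.28) and 13 under duloxetine (0.23), and their medians under the other 3 drugs lay between −0.03 and 0.06. With both arrays that stand apart left out the receptor medians were 0.10 and 0.04, and those of 18 other ligands 0.15 and 0.01, where they had been 0.33 and 0.21. The exception in sign under mirtazapine was Cxcr4, the receptor for Cxcl12 and the receptor of lowest p. It read 8.78 and 8.64 in control and 8.26 and 8.25 under mirtazapine (−0.46 ± 0.10, adjusted p = 0.0594 in limma). Both Cxcr4 arrays were below both control arrays under each of the 5 drugs, as for 18.3% to 30.6% of all genes per drug. All 5 comparisons share the same control arrays, and the share of genes below in all 5 was not counted. Xcl1 had the lowest p of the ligands, at 6.04 and 5.89 in control and 6.31 and 6.49 under mirtazapine (0.44 ± 0.12, adjusted p = 0.109 in limma). Its 6.49 came from mirtazapine replicate 2, an array that stands apart. Without either duloxetine array limma called both Cxcr4 and Xcl1 under mirtazapine, along with Mc4r and Ifit2.

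A set of 5 receptors and partners of lipocalin 2 was tested, and none of them was called in limma. Their medians lay between −0.04 and 0.08. Mc4r, a melanocortin receptor that Lcn2 has been reported to bind, had the lowest p. It read 8.68 and 8.72 in control and 8.34 and 7.99 under mirtazapine (−0.54 ± 0.15, adjusted p = 0.106 in limma). The 7.99 came from mirtazapine replicate 2, an array that stands apart. Of the 18 genes tested in the list of inflammatory cytokines and receptors, limma called only Ptgs2, an enzyme gene, higher under imipramine and mirtazapine. Differences were positive for 13 under amitriptyline, 14 under citalopram, 9 under duloxetine, 15 under imipramine and 14 under mirtazapine. The list's medians were 0.06 under amitriptyline, 0.12 under citalopram, 0.01 under duloxetine, 0.15 under imipramine and 0.19 under mirtazapine. Those of all genes lay between −0.035 and −0.005. The list stood at 0.13 under mirtazapine and −0.025 under duloxetine with both arrays that stand apart left out.

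**Figure D5:**
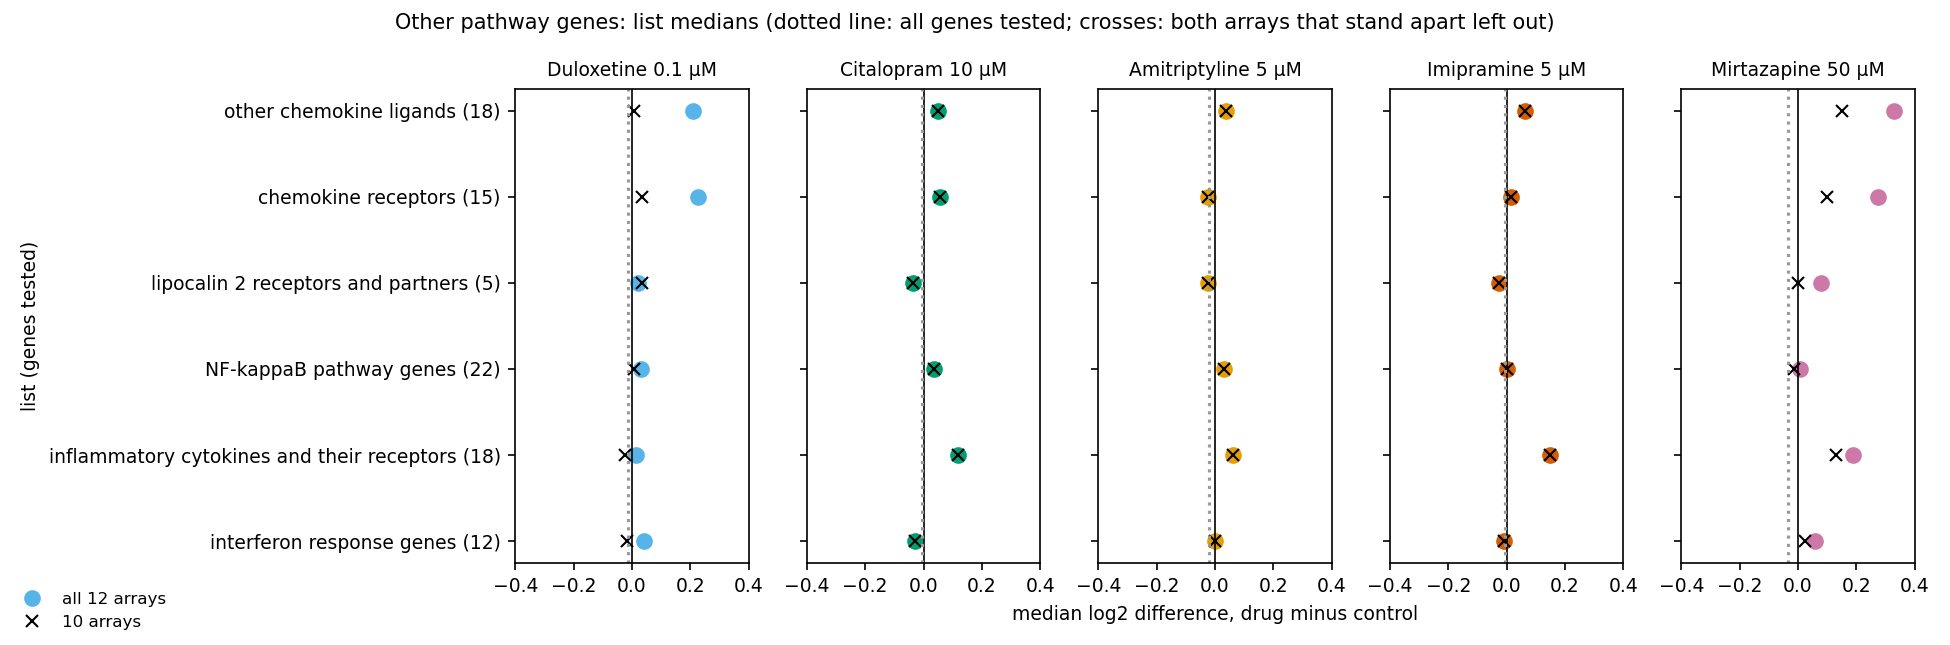
Median log2 difference from control (horizontal axes) of 6 lists of other pathway genes (vertical axis, number tested in brackets) for each drug; circles use all 12 arrays, crosses leave out both arrays that stand apart, and dotted lines are the median of all genes. The receptor median under mirtazapine moves from 0.28 to 0.10 without those arrays, and the NF-kappaB medians stay near 0.

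Markers of the cells that could make these transcripts were followed beside them. The astrocyte list was negative for 10 of 10 genes under amitriptyline and imipramine and for 9 of 10 under citalopram and mirtazapine, with medians of −0.30, −0.27, −0.15 and −0.31, and at 0.01 under duloxetine. Limma called 2 of the 10 under mirtazapine, and both fell: Aqp4, the astrocyte water channel (−1.17, adjusted p = 0.01), and Gfap, an intermediate filament (−0.60, adjusted p = 0.0214). The Aqp4 call ended in limma without control replicate 1 (adjusted p = 0.112) or mirtazapine replicate 2 (0.0664). The Gfap call ended without either control array (0.167 and 0.0736 in limma), either citalopram array (0.0526) or mirtazapine replicate 2 (0.1). The summed linear level of the list was 17866 to 18801 in control, 16498 to 18561 under duloxetine and 15014 to 16520 under the other 4 drugs. Cxcl1, Cxcl2 and Lcn2 were higher in the 4 drug groups with negative astrocyte medians. The summed level did not split the arrays in the same way, as the lower duloxetine array (16498) lay below both citalopram arrays (16506 and 16520). The list's mean log2 level did split them so, in the opposite direction. It was 9.60 to 9.70 in control, 9.61 to 9.69 under duloxetine and 9.21 to 9.47 under the other 4 drugs. Fibroblast and pericyte markers were mixed. Of the 7 tested, differences were negative for 5 under amitriptyline, 4 under citalopram, 7 under imipramine, 4 under mirtazapine and 2 under duloxetine, with medians of −0.17, −0.30, −0.33, −0.28 and 0.09. With both arrays that stand apart left out, the medians under mirtazapine and duloxetine were −0.105 and 0.095. The collagen genes Col1a1, Col1a2 and Col3a1 were positive under mirtazapine (0.31 to 0.41) and citalopram (0.03 to 0.06), where Dcn and Pdgfra were negative. The list had summed levels of 1895 to 2195 in control, 1980 to 2310 under duloxetine and 1184 to 1532 under the other 4 drugs. This sum also split the arrays as Cxcl1, Cxcl2 and Lcn2 did, in the opposite direction. Of the 7, 1 fell in limma, the collagen-binding proteoglycan gene Dcn under mirtazapine (−1.61, adjusted p = 0.0115), and that call ended without control replicate 1 (0.112) or mirtazapine replicate 2 (0.0791).

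Of the microglia and macrophage list 16 genes were tested and none was called in limma. Its median was highest under mirtazapine, at 0.20, followed by duloxetine at 0.07, and ran from −0.04 to −0.005 under the other 3 drugs. With both arrays that stand apart left out, the list stood at 0.105 under mirtazapine and −0.12 under duloxetine. Its summed level was 2106 to 2451 in control, 2084 to 2432 under duloxetine, 2199 to 2380 under the 2 tricyclics and citalopram and 2442 to 2585 under mirtazapine. Neutrophil markers summed to 427 to 441 in control and 426 to 488 under amitriptyline, citalopram and imipramine. They reached 582 and 592 on the arrays of duloxetine and mirtazapine that read highest, and 5 of their 8 genes (S100a8, Ngp, Camp, Ly6g and Retnlg) lay below the filter. The median difference of the 3 tested was 0.255 under duloxetine and 0.28 under mirtazapine. With both arrays that stand apart left out, these medians were −0.03 and 0.255. Endothelial markers summed to 609 to 649 in control and 603 to 780 under the drugs. Neuron markers summed to 39833 to 42585 in control and 37459 to 42449 under the drugs. The part of any of these cell types in the chemokine and Lcn2 values was not tested.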

How the data were processed

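The deposited table holds log2 values, rounded to 2 decimals, for 41345 probe sets on 12 arrays. Per the submitters' processing notes the authors computed them by RMA in Affymetrix Expression Console; software versions and settings are not stated there. RMA values carry no counts, so the number of arrays (2 a group) limits the precision. The platform annotation gave 1 symbol for 23521 probe sets, several for 1814 and none for 16010; all 10 members matched the RefSeq gene table (GRCm38) by gene number. Where a gene had several probe sets, the one with the highest mean stood for it, and genes with a mean under the 30th percentile of all probe sets (5.72) were not tested.

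A linear model was fitted over the 12 arrays with lmFit and eBayes (limma 3.58.1 under R 4.3.3; 6 residual and 3.86 prior degrees of freedom), after a test on simulated data. Each drug was compared with control, and amitriptyline with imipramine. P-values are two-sided, adjusted by Benjamini-Hochberg over 17467 genes and called under 0.05. For the median gene the 95% interval extended 0.28 log2 units above and below the difference.

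The members, gene lists, alternatives and the pair of arrays left out together were chosen with earlier results of these data known. Named besides the members are pathway genes called under a drug (at most 8 per drug), the gene of lowest p of each list with none called, and the 3 nearest genes of each member with a range over 1 log2 unit, passing over predicted genes and small RNAs. Ccl17, Il18, Gfap, Aqp4 and Dcn were named after their values were seen. In fits with an array left out, its partner is taken to vary as the other groups do. Plots used matplotlib 3.10.9 in Python 3.11.15.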

Additional observations from a re-analysis of the deposited data

How the results depend on the processing

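Of 1050 values of a member's difference from control under 21 alternatives, 991 moved by less than 1 SD between replicates and 59 by more. Many of these alternatives cannot move it, as filters, moderation and arrays of other groups do not enter a difference of 2 group means. The 991 are therefore no measure of stability. The count of members called in limma (0 for amitriptyline, citalopram and duloxetine, 1 for imipramine and 1 for mirtazapine) differed between alternatives. For imipramine it was 0 with no filter (0.0135% of all genes called), with every probe set (0.0216% of probe sets) and with only the 4 arrays compared (0%). It was 2 with trend and robust moderation (0.0973%) and with a second quantile normalization (0.103%), and 3 with array weights (0.733%). For mirtazapine it was 3 with a 50th percentile filter (3.27% of all genes called), trend and robust moderation (2.52%) or a second quantile normalization (1.99%). It was 0 with array weights (0.63%) and with only 4 arrays (0.0802%). For amitriptyline it was 2 with trend and robust moderation (0.16%) and 3 with array weights (1.27%), and for citalopram 3 with array weights (0.435%). Leaving out each array in turn, it ranged from 0 to 2 for amitriptyline, 0 to 1 for citalopram, 0 to 3 for imipramine and 0 to 3 for mirtazapine, and stayed at 0 for duloxetine and for the pair of tricyclics. Of the 90 other pathway genes, calls under amitriptyline were 1 with a 50th percentile filter (0.126% of all genes), trend and robust moderation (0.16%) or a second quantile normalization (0.103%). With array weights (1.27%) they were 2. Under citalopram they were 1 with trend and robust moderation (0.0172% of all genes) or array weights (0.435%). Under imipramine there were 0 with only 4 arrays (0% of all genes). Under mirtazapine there were 4 with a 50th percentile filter (3.27%) or trend and robust moderation (2.52%), 1 with array weights (0.63%) and 0 with only 4 arrays (0.0802%). With each array left out they ranged from 0 to 1 for amitriptyline, citalopram and imipramine, 0 to 8 for duloxetine and 0 to 9 for mirtazapine. The difference of Cxcl12 between amitriptyline and imipramine was −0.12 with all arrays and ran from −0.245 to 0.005 with each array left out, the last without imipramine replicate 2. Fewer arrays leave fewer degrees of freedom; otherwise the cause was not tested.

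The replicate numbers share no stated litter or batch. Over the 15 pairs of groups the correlation of same-numbered deviations ran from −0.44 to 0.71, with 4 over 0.1, so they were not taken to pair the arrays. With the replicate number as a block, 0 members were called for imipramine, and no other count of members or pathway genes changed by more than 1.5 times.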
